A study of Rattus norvegicus with 10 samples.

Results

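The cytosolic ribosomal protein genes were examined in liver. The animals were 10 Wistar/ST rats, every one on a high-fat diet, and the total RNA of each was hybridised to an Affymetrix array of its own. The 5 mulberry rats were given dried powder of mulberry leaf by gastric probe at a daily dose of 500 mg/kg, and the 5 control rats were given 0 mg/kg. The powder was suspended in 0.5% carboxymethylcellulose, which is listed for all 10 rats, controls included. Livers were taken after 7 weeks. Sex and age of the rats are not given in the labels. A gene counted as a member when a probe set carried its symbol alone and that symbol began with Rpl, Rps or Rplp and a digit, or was Rpsa; the S6 kinase symbols that begin with Rps6k were left out. Where a gene had several such probe sets, the one with the highest mean log2(intensity + 16) over the 10 arrays stood for it. This gave 50 genes out of 14217 with a probe set of their own, 34 named for the large and 16 for the small ribosomal subunit. By their symbols 42 were canonical ribosomal proteins, 6 were paralogues (Rpl26l1, Rpl39l1, Rpl3l, Rpl7l1, Rps27l and Rps4y2) and 2 were pseudogenes (Rpl37-ps2 and Rps4x-ps1). A further 36 probe sets whose annotation lists several symbols, at least 1 of them of this kind, are given only as a group.

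Ribosomal proteins fold onto the ribosomal RNAs to build the small subunit, which decodes the messenger RNA, and the large subunit, which forms the peptide bond. The liver makes most plasma proteins and carries a large stock of ribosomes. Ribosomal protein messengers of mammals begin with a run of pyrimidines, the 5′ terminal oligopyrimidine (TOP) tract, through which mTORC1 signalling and the RNA-binding protein Larp1 set how actively they are translated and how stable they are. Control through the TOP tract acts mainly on translation, which an array of total RNA does not measure. In bulk liver RNA, fewer cells of a type and less RNA per cell cannot be told apart.

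Pyrimidine runs near the annotated start were counted in the members' promoters. RefSeq promoters of the rat assembly GRCr8, from 250 bases before to 50 bases after the annotated start, were matched by gene identifier for 41 of the 50 members. Within the 30 bases centred on the start, 30 of 41 members (73.2%) held an unbroken run of at least 6 C or T on the gene's strand, against 27.6% of 18999 protein-coding genes. A run of at least 8 was found in 23 of 41 members (56.1%), against 11% of all. The longest run, of at least 6, crossed the annotated start, with bases on both sides of it, in 17 of 41 members (41.5%), against 5.90% of all protein-coding genes; 13 members held a run only elsewhere in the window and 11 held none. The named members whose run spanned the annotated start are shown first, with the run in capitals and 15 bases on either side of the start:
Rpl22 (GRCr8 chr5:168117946-168117975, plus strand): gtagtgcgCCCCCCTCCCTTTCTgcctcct
Rpl27a (GRCr8 chr1:172974558-172974587, plus strand): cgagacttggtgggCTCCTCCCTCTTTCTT
Rpl39 (GRCr8 chrX:121195882-121195911, minus strand): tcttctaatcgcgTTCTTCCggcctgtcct
Rplp0 (GRCr8 chr12:46718376-46718405, minus strand): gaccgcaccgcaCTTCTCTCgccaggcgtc
Rps15 (GRCr8 chr7:10068101-10068130, minus strand): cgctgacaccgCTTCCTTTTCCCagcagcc
Rps3a (GRCr8 chr2:173827028-173827057, minus strand): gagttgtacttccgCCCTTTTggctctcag
The named members without such a run in these 30 bases are shown for contrast, with no capitals:
Rpl11 (GRCr8 chr5:153560788-153560817, minus strand): ggggacttgaagcttgtttggtgctgggga
Rpl26l1 (GRCr8 chr10:17029014-17029043, minus strand): aaatgtcatttccgggcctgcgcacacacc
Rpl3 (GRCr8 chr7:113507976-113508005, minus strand): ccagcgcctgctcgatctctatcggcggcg
Rpl41 (GRCr8 chr7:1563483-1563512, minus strand): ggcggctcggaagtgacgacaccaagcacg
Rps27l (GRCr8 chr8:76443643-76443672, plus strand): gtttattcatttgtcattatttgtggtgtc

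The remaining 7 of the 18 named members with a promoter held a run of at least 6 that did not cross the annotated start. Annotated starts can lie some bases away from the start used in liver, so a missing run says only that these letters are not in this window. Over the full 300 bases, CCGGAAG, the core bound by ETS factors, was present on either strand in 10 of 41 members (24.4%) and in 11.2% of all protein-coding genes. GGGCGG, the Sp1 core, was present on either strand in 25 of 41 (61.0%) and in 43.1%. AAGATGGCG, a YY1 core that can overlap a start codon, was present on either strand in 3 of 41 (7.32%) and in 2.29%. TATAAA on the gene's strand was present in 4 of 41 (9.76%) and in 8.63%. These are counts of letters and were not tested.

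Of the 50 members, 44 passed the filter on dim probe sets, which required a mean log2(intensity + 16) above 6.27, an intensity of 61.1. They were 29 large subunit and 15 small subunit genes. In 38 of them the mean intensity lay between 6327 and 26050, and in the other 6 (Rpl26l1, Rpl39, Rpl7l1, Rps13, Rps27l and Rps4y2) it was 1901 or less. This gap was noticed after the values were seen, and brightness of different probe sets was not read as amounts of different messengers. The 6 members under the filter were Rpl28, Rpl30, Rpl39l1, Rpl3l, Rpl37-ps2 and Rps4x-ps1. Rpl3l, a paralogue of striated muscle, averaged 14.3 ± 12.7 in mulberry and 10.4 ± 2.39 in control rats. Rpl39l1 averaged 36.7 ± 25.3 in mulberry and 84.2 ± 73.4 in control rats (SD, n = 5 each). Rpl28 averaged 15.9 ± 12.7 in mulberry and 21.4 ± 8.92 in control rats, and Rpl30 averaged 43.2 ± 26.6 in mulberry and 29.4 ± 21.3 in control rats. Both are canonical large subunit proteins whose names also stand on probe sets with several symbols, so these dim values do not show that their messengers were scarce. Ribosomal proteins have many processed pseudogenes of nearly the same sequence, and a probe set may read some of them together with the gene.

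Mulberry and control livers did not differ detectably in any ribosomal protein gene. With limma and Benjamini-Hochberg adjustment over 18625 probe sets, 0 of 44 members passed an adjusted p of 0.05, as did 0 probe sets in the whole table (0%). At an unadjusted p under 0.05 there was 1 member of 44, Rpl26l1, against 1.79% of 10328 genes tested and 1.74% of probe sets. The intensity ranges of mulberry and control rats overlapped for all 44, against 0.32% of all genes tested whose groups did not overlap. Of the 44, 32 had a higher and 12 a lower mean in mulberry rats, where 51.3% of all genes tested were higher and 48.7% lower. With each array centred on its median, 20 of 44 were higher. The median log2 difference, mulberry minus control, was 0.025 over the members and 0.0035 over all genes tested. It was 0.025 over the 29 large subunit genes, of which 22 were higher, and 0.025 over the 15 small subunit genes, of which 10 were higher. The 36 probe sets with several symbols had a median of 0.018, with 22 higher and 14 lower.

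The sign of the members' median turned without control rat 2 (-0.020), control rat 5 (-0.0081) or mulberry rat 1 (-0.016), and the median was 0.096 without control rat 3. The number of members with a higher mean was 18 without control rat 2, 20 without control rat 5, 17 without mulberry rat 1 and 41 without control rat 3. Among the 38 brighter members every difference lay between -0.054 and 0.11, and every 95% interval lay between -0.29 and 0.39 on the log2 scale. Changes beyond those bounds fall outside the intervals of all 38 genes. The bounds are extremes over the 38 genes, and single intervals were narrower, at a median half-width of 0.22. For Rpl26, for example, the interval ran from -0.13 to 0.19. Changes inside a gene's own interval could not be told from the spread between 5 and 5 rats.

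**Figure D1:**
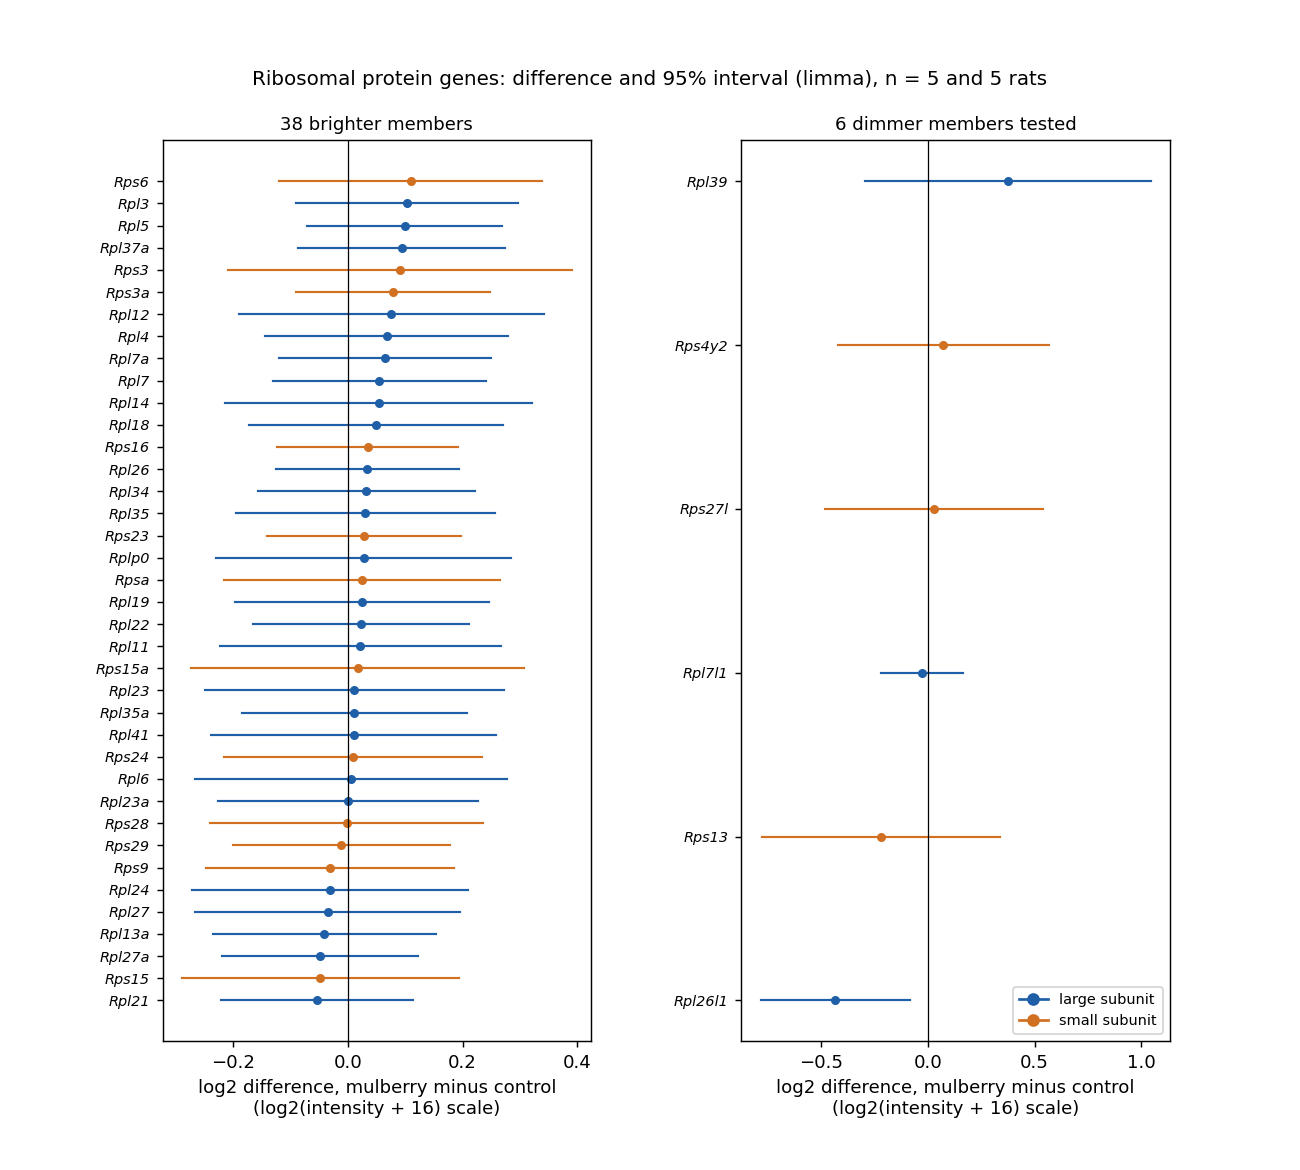
Log2 difference (mulberry minus control, log2(intensity + 16) scale) of the 44 tested ribosomal protein genes, with the limma 95% interval as a line, in blue for large and in orange for small subunit genes (n = 5 rats per group). The 38 brighter members are on the left, between -0.054 and 0.11, and the 6 dimmer ones on the right, on a wider axis; only the interval of Rpl26l1 (-0.78 to -0.085) does not cross 0, before adjustment.

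Among large subunit proteins, Rplp0, the base of the acidic stalk that recruits elongation factors, had intensities of 12830, 10002, 9873, 12278 and 13296 in mulberry rats 1 to 5, against 10513, 9732, 14024, 12229 and 10708 in control rats 1 to 5. The highest value came from a control rat and the group ranges overlapped almost entirely. The log2 difference was 0.028 ± 0.12 (SE), with a 95% interval from -0.23 to 0.28. Rpl3, which lies close to the peptide-bond-forming centre, stood at 13866, 12695, 11790, 12496 and 13932 in mulberry rats, against 11238, 11668, 14556, 11058 and 11979 in control rats. Control rat 3 was above every mulberry rat, while the other 4 control rats lay below the median of the mulberry rats. Its difference was 0.10 ± 0.090 (SE; 95% interval -0.091 to 0.30), and its dimmer probe set differed by 0.19 ± 0.19.

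Rpl5 and Rpl11 bind 5S ribosomal RNA together and, when free of the ribosome, hold back the p53 ligase Mdm2. Rpl5 was measured at 14371, 12184, 11969, 12872 and 11795 in mulberry rats, against 11502, 11923, 12734, 10789 and 11957 in control rats. Mulberry rat 1 stood above all control rats, and the other mulberry rats were within or just above the control range (0.10 ± 0.079 SE, 95% interval -0.070 to 0.27). Rpl11 was at 14676, 12015, 11636, 13947 and 12904 in mulberry rats, against 11853, 11248, 16260, 14080 and 11211 in control rats. Here control rat 3 was the highest of all 10 (0.022 ± 0.11 SE). The 2 partners had their highest value in rats of different groups. Still, mulberry rat 1 was the next highest for Rpl11, and control rat 3 was the highest control rat for Rpl5.

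Rpl13a, which also belongs to an interferon-responsive complex that silences inflammatory messengers in human cells, averaged 11330 ± 973 in mulberry and 11669 ± 1179 in control rats (SD, n = 5 each). Rpl22, an RNA-binding protein with a close paralogue in Rpl22l1, averaged 7387 ± 673 in mulberry and 7262 ± 559 in control rats. Rpl41, a very short and basic peptide, averaged 11718 ± 1332 in mulberry and 11691 ± 1844 in control rats. Their differences of -0.041, 0.023 and 0.010 were each smaller than their SE. Rpl37a was at 0.094 ± 0.083 (SE), Rpl21 at -0.054 ± 0.077 and Rpl27a at -0.048 ± 0.079.

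Rpl39, a small protein that lines the exit tunnel for the nascent chain, had the largest positive difference of the tested members, 0.38 ± 0.31 (SE). This rests on a dim probe set, and how well its signal reports the Rpl39 messenger was not tested. Its intensities were 274, 110, 277, 105 and 84.6 in mulberry rats, against 156, 81.6, 102, 109 and 127 in control rats. Mulberry rats 1 and 3 were above every other rat and the other 3 mulberry rats lay within the control range. The interval ran from -0.29 to 1.04, and the difference was 0.17 without mulberry rat 3, 0.18 without mulberry rat 1 and 0.56 without mulberry rat 5.

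Among small subunit proteins, Rps6, the substrate of the S6 kinases below mTOR, had intensities of 16911, 12100, 13786, 17734 and 13209 in mulberry rats, against 13262, 13208, 14397, 14195 and 12627 in control rats. Mulberry rats 1 and 4 exceeded every control rat and mulberry rat 2 was below all of them. The log2 difference was 0.11 ± 0.11 (SE; 95% interval -0.12 to 0.34). Rpsa, the small subunit protein also known as the laminin receptor, was at 10921, 10038, 8772, 10571 and 10201 in mulberry rats, against 8743, 8730, 12577, 10882 and 9097 in control rats. The mulberry values lay inside the control range on its main probe set (0.025 ± 0.11 SE), and its 2 other probe sets differed by -0.0037 ± 0.12 and -0.0088 ± 0.099. Rps3, which lines the channel where the messenger enters, averaged 10354 ± 1715 in mulberry and 9746 ± 1850 in control rats (SD, n = 5 each; log2 difference 0.090 ± 0.14 SE, and 0.0090 without mulberry rat 4). Rps3a was at 0.079 ± 0.078 (SE), Rps15 at -0.048 ± 0.11 and Rps13, on a dim probe set, at -0.22 ± 0.26 and at -0.026 without mulberry rat 2.

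The paralogues split evenly, with 2 of the 4 tested higher in mulberry rats by mean and 2 lower. Rpl26l1, a close copy of the large subunit protein Rpl26, had intensities of 96.7, 69.2, 67.2, 80.1 and 77.0 in mulberry rats, against 114, 131, 111, 94.9 and 103 in control rats. The groups overlapped only through mulberry rat 1, which lay just above control rat 4. Its difference of -0.43 ± 0.16 (SE; 95% interval -0.78 to -0.085) had an unadjusted limma p of 0.0187 and an adjusted p of 0.9999, so it did not pass. The Rpl26l1 probe set was dim, not far above the filter at an intensity of 61.1. Its difference was -0.30 with a pseudocount of 64 and -0.50 with a pseudocount of 1. The sign held without each rat in turn, between -0.50 and -0.38. Rpl26 itself, on a bright probe set, averaged 19823 ± 892 in mulberry and 19403 ± 1682 in control rats (SD, n = 5 each).

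Rps27l, a paralogue of Rps27 that p53 induces in human cells, had intensities of 381, 757, 802, 386 and 854 in mulberry rats, against 602, 678, 576, 439 and 670 in control rats. The mulberry rats fell on both sides of the control range, rats 1 and 4 below it and rats 2, 3 and 5 above it, so that the group means were close (0.029 ± 0.24 SE). Rpl7l1, a nucleolar relative of Rpl7, averaged 1880 ± 62.6 in mulberry and 1921 ± 169 in control rats, and Rps4y2, a relative of Rps4x, 314 ± 55.0 in mulberry and 311 ± 110 in control rats (SD, n = 5 each).

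**Figure D2:**
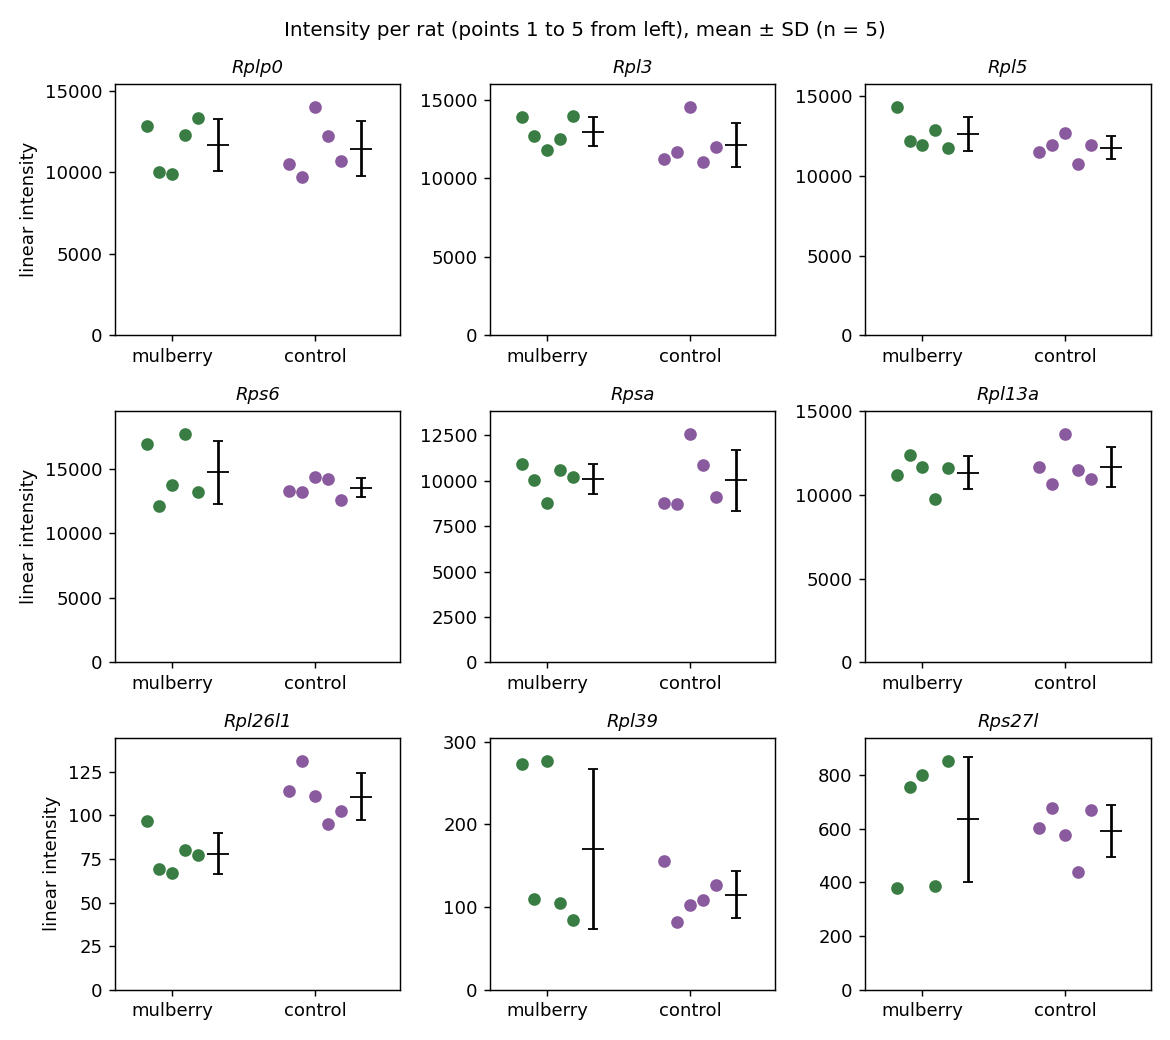
Linear intensity of 9 members in each rat (mulberry green, control purple, rats 1 to 5 from left to right in each group), with the mean ± SD of 5 rats in black; each panel has its own axis from 0. The groups overlap in every panel, for Rpl26l1 only through mulberry rat 1 (96.7) and control rat 4 (94.9), and the mulberry values of Rps27l lie on both sides of the control range.

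The ribosomal protein genes varied together from rat to rat, by more than they differed between mulberry and control. The mean log2 deviation of the 44 members from their 10-rat means was 0.15, -0.078, -0.066, 0.060 and -0.025 in mulberry rats 1 to 5, against -0.041, -0.13, 0.21, 0.022 and -0.11 in control rats 1 to 5. The highest and the lowest rat, both controls, were 1.27-fold apart. The mean was 0.0089 ± 0.097 in mulberry and -0.0089 ± 0.14 in control rats (SD, n = 5 each). Control rat 3 had the highest value in 28 of the 44 members, against 17.1% of all genes tested. Control rats 2 and 5 had the lowest value in 15 and 13 members, against 7.40% and 8.15% of all genes.

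Large and small subunit genes had the same order of highest rats. In mulberry rat 1 the deviation was 0.18 for large and 0.11 for small subunit genes, and in control rat 3 it was 0.21 and 0.23. Mulberry rat 1 was above the gene's own mean in 41 members and control rat 3 in 40, while control rat 2 was above it in 4; over all genes tested these shares lay between 47.8% and 56.2% in every rat. The 36 probe sets with several symbols, which share no probe set with the members, had deviations of 0.15 in mulberry rat 1 and 0.29 in control rat 3, with the other 8 rats between -0.14 and 0.052.

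The median Pearson correlation over 946 pairs of members across the 10 rats was 0.67, and 0.68 with group means removed, against 0.0037 over all pairs of genes tested. For the 38 brighter members it was 0.74 and for the 6 dimmer ones -0.23. Rpl34, Rpl19 and Rpl23 followed the mean of the other members most closely, at 0.99, 0.98 and 0.98. Rps27l (-0.66) ran against it, while Rps13 (-0.15), Rpl21 (-0.11), Rpl26l1 (0.027) and Rpl39 (0.056) did not follow it. Among the dimmer members, Rps4y2 (0.78) and Rpl7l1 (0.64) did follow it. These correlations are descriptive, since the 10 points share their arrays, scaling and RNA preparations.

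Several measures of the arrays and of other genes moved with this pattern. After quantile normalization the range of the members' mean over rats was 0.17, against 0.35 with the authors' scaling, and the median pair correlation was 0.25, against 0.010 over all genes treated alike. For Gapdh, whose 3′ over 5′ signal reflects how intact the RNA was, the log2 ratio stood at 0.12, 0.27, 0.34, 0.024 and 0.29 in mulberry rats 1 to 5, against 0.34, 0.34, -0.012, 0.090 and 0.32 in control rats 1 to 5. Mulberry rats 1 and 4 and control rats 3 and 4, the 4 rats whose members' mean was above 0, had the 4 lowest ratios. The same ratio for beta-actin was 1.49, 1.95, 1.6, 1.29 and 1.86 in mulberry rats, against 1.67, 1.88, 1.51, 1.70 and 2.10 in control rats. It was lowest in mulberry rats 4 and 1 and control rat 3, but in control rat 4 it was above mulberry rat 3 and control rat 1, whose members' means were below 0. Hepatocyte markers, of which 11 of 12 were found and tested, deviated by 0.18, -0.093, -0.11, 0.20 and -0.033 in mulberry rats, against -0.10, -0.11, 0.11, 0.040 and -0.082 in control rats, so the same 4 rats were above 0. Their summed intensity was 291913 to 362654 in mulberry and 289204 to 344324 in control rats, and no marker was under the filter. All 11 had a higher mean log2 value in mulberry rats, against 51.3% of all genes tested. Their median difference was 0.048, against 0.0035 over all genes tested. At an unadjusted limma p under 0.05 there were 0 of the 11, the smallest p being 0.053, against 1.79% of all genes tested. The part of these measures in the shared variation was not tested.

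**Figure D3:**
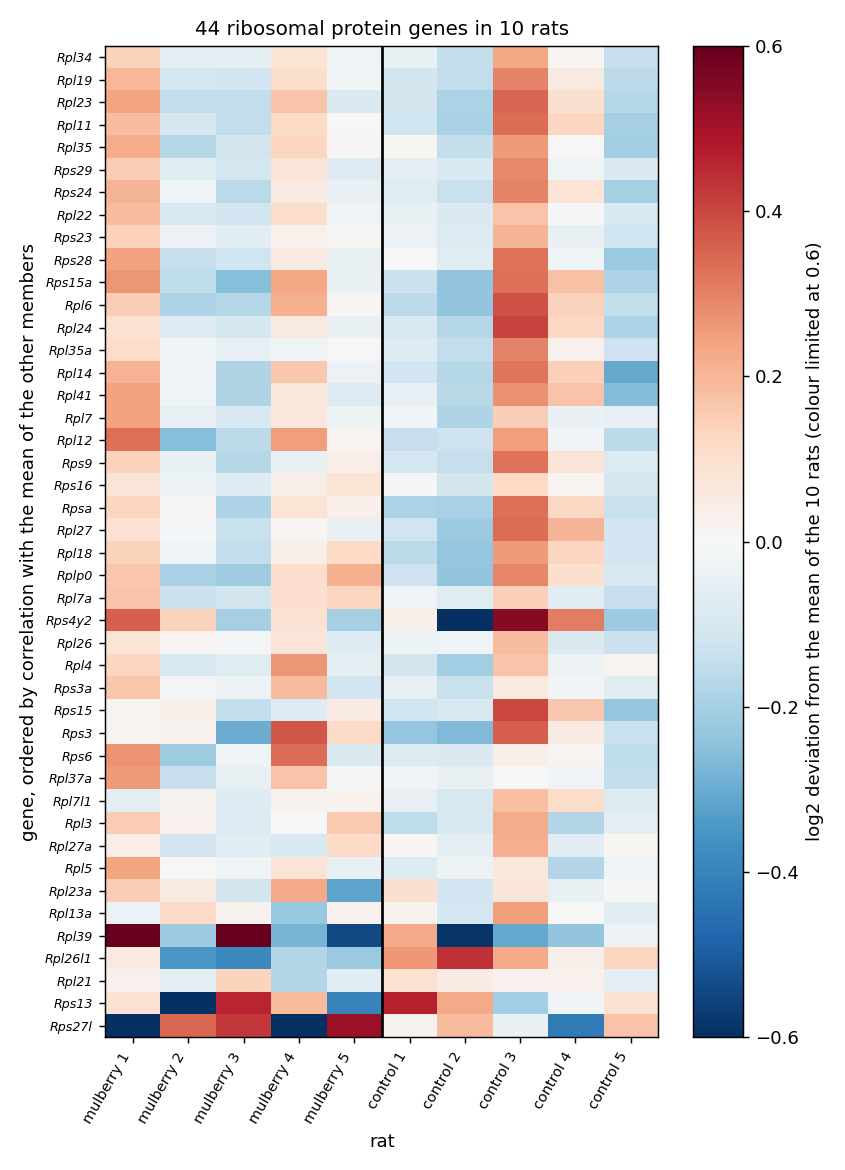
Log2 deviation of each of the 44 tested members (rows) from its mean over the 10 rats (columns, mulberry on the left and control on the right), with red above and blue below the mean and rows ordered by correlation with the mean of the other members. Mostly red columns stand out for mulberry rat 1 and control rat 3, where 41 and 40 members were above their means. Mostly blue ones are those of control rat 2, control rat 5 and mulberry rat 3, where 4, 5 and 5 were. The bottom rows, down to Rps27l, do not follow.

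**Figure D4:**
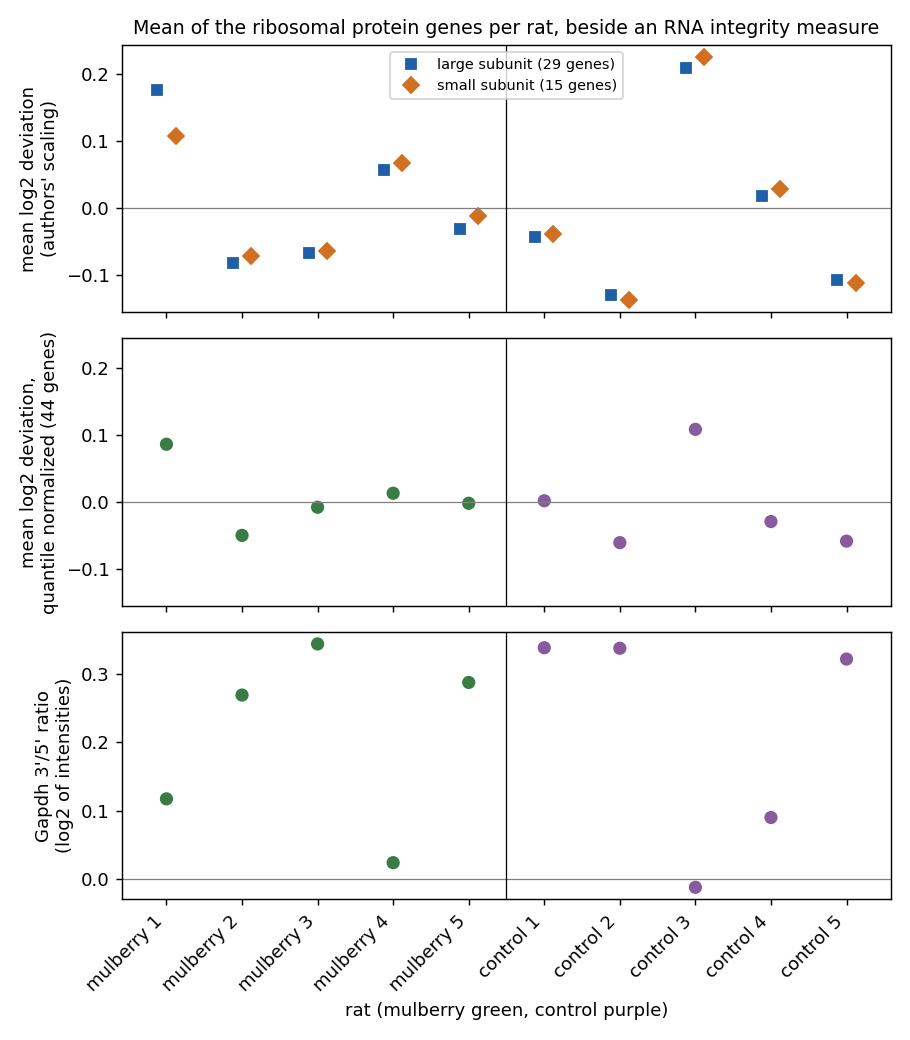
Mean log2 deviation per rat of the large and small subunit genes with the authors' scaling (top), of all 44 members after quantile normalization on the same scale (middle), and the log2 ratio of 3′ over 5′ Gapdh signal (bottom), with mulberry rats left and control rats right of the line. Control rat 3 is highest at the top (0.21 and 0.23) and has the lowest Gapdh ratio (-0.012); after quantile normalization the range over rats is 0.17.

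The variation between rats within a group set the precision. The median within-group SD was 0.17 on the log2 scale for members and 0.24 for all genes tested, and the median SE of a difference was 0.10 for members.

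Other genes of the translation apparatus also gave no gene past the test, with 0 genes at an adjusted limma p under 0.05 in each of the 6 lists. At an unadjusted p under 0.05 the mTORC1 list held 2 of 19 genes, the mitochondrial ribosomal list 1 of 73 and the other 4 lists 0, against 1.79% of all genes tested. Messengers with a TOP tract other than those of ribosomal proteins were tested for 14 genes, of which 10 had a higher mean in mulberry rats (median log2 difference 0.031). Their mean deviated by 0.075 in mulberry rat 1 and by 0.12 in control rat 3. In that list Naca, a subunit of the complex that meets nascent chains at the ribosome, was at 0.079 ± 0.081 (SE). Eef1b2, an exchange factor for the elongation factor that delivers aminoacyl-tRNA, was at -0.095 ± 0.11.

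Of 38 genes for nucleolar ribosome assembly, 23 had a higher mean (median 0.026). Rrp9, a protein of the U3 small nucleolar particle, averaged 428 ± 58.3 in mulberry and 368 ± 58.1 in control rats (SD, n = 5 each), and Nip7, a factor of large subunit assembly, 877 ± 162 in mulberry and 1007 ± 124 in control rats. This list's mean in control rat 3 was -0.17, the lowest of the 10 rats, where the ribosomal protein genes were highest. For RNA polymerase I and its factors 6 of 13 were higher (median -0.0037), with the core subunit Polr1b at -0.16 ± 0.11 (SE) and Polr1c, shared with RNA polymerase III, at -0.099 ± 0.097.

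Of 26 initiation factors, 20 had a higher mean (median 0.026), with the scaffold protein Eif4g2 at 0.11 ± 0.076 (SE) and Eif3j at 0.15 ± 0.12. In the mTORC1 list 8 of 19 were higher (median -0.025), and its 2 genes with an unadjusted p under 0.05 were both lower in mulberry rats. Eif4ebp3, a repressor of cap-dependent initiation, averaged 2595 ± 537 in mulberry and 3700 ± 731 in control rats, and Myc, a driver of ribosome production, 222 ± 65.6 in mulberry and 434 ± 231 in control rats (SD, n = 5 each). Their differences of -0.51 ± 0.17 and -0.84 ± 0.29 (SE) did not pass the adjusted test.

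Mitochondrial ribosomal protein genes, which are nuclear genes for the separate ribosome of mitochondria, had 32 of 73 higher in mulberry rats and a median of -0.012. Their mean in control rat 3 was 0.22, like that of the cytosolic members (0.21), but in mulberry rat 1 it was 0.041, where the cytosolic members stood at 0.15. Their median pair correlation was 0.36, and 0.38 after quantile normalization. These values are set side by side without a test of the difference.

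Markers of other cell types were measured in the same arrays. Summed intensity of 10 macrophage markers was 12818 to 30440 in mulberry and 20394 to 28152 in control rats, and that of the 5 red blood cell markers found was 23298 to 27514 in mulberry and 17258 to 30066 in control rats. The 3 neutrophil markers found summed to 117 to 278 in mulberry and 273 to 371 in control rats. Both that passed the filter, S100a9 (-0.77) and S100a8 (-0.62), were lower in mulberry rats at an unadjusted limma p under 0.05. The smaller p, 0.00136, was also the smallest over all genes tested, and neither gene passed after adjustment. Camp was under the filter (6.64 in mulberry and 6.37 in control). Of the 10 macrophage markers 1 was higher and 1 lower at an unadjusted limma p under 0.05. Over all 10328 genes tested, 117 were higher and 68 lower at that threshold (1.79%). The 11 lymphocyte markers found summed to 2403 to 3724 in mulberry and 2446 to 3338 in control rats, and Cd2, Cd3d, Cd3e and Cd79b were under the filter. The 5 bile duct markers found summed to 901 to 1354 in mulberry and 1064 to 1344 in control rats, with Krt7 and Cftr under the filter. The 8 endothelial markers summed to 9897 to 11586 in mulberry and 9257 to 11339 in control rats, and the 9 stellate cell markers to 4307 to 5452 in mulberry and 3451 to 5417 in control rats. The macrophage list's mean deviation was -0.11, 0.076, -0.70, 0.41 and 0.28 in mulberry rats 1 to 5. In control rats 1 to 5 it was -0.18, -0.17, 0.41, 0.057 and -0.083. Mulberry rat 4 and control rats 3 and 4 were above 0 both in this list and in the members. Mulberry rat 1 was above 0 in the members only, and mulberry rats 2 and 5 in this list only. The part of other cell types in the members' values was not tested.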

How the data were processed

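Liver RNA of 10 rats was measured, 5 per group by sample title. The authors deposited 1 table of linear intensity values for 31099 probe sets; per the submitters' processing notes MAS5 and the affy package were used, with no version or role given. Each array had a mean of 500 after 2% of values were trimmed, and no intensity was under 1, so no further scaling was applied. The number of arrays limits the precision. The 57 control probe sets were left out of the test, and so were probe sets at or below the 40th percentile of mean log2(intensity + 16), which left 18625 of 31042. Differences of dim probe sets are understated on this scale.

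Mulberry and control rats were compared with limma 3.58.1 in R 4.3.3 (lmFit, eBayes with a variance trend, two-sided), with p-values adjusted by Benjamini-Hochberg across the probe sets that passed the filter; the fit was tested on simulated data. Tables and plots used Python 3.11.15, pandas 2.3.3, numpy 2.4.6 and matplotlib 3.10.9. Symbols came from the platform annotation; 48 of 50 members were matched to RefSeq genes of GRCr8 by identifier, and promoters are RefSeq's.

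Members and lists were chosen with earlier results of these data known. Named members were any past the threshold, filled to 6 per direction by smallest unadjusted p, plus 18 genes fixed by role, of which 11 were tested members and 7 are not analysed here; 2 genes per further list were named by smallest p. Rpl34, Rpl19, Rpl23, Rpl26, Rpl7l1, Rps4y2, the members under the filter, S100a8 and S100a9 were added after their values were seen. Alternatives were pseudocounts of 1 and 64, no filter, a fit without the variance trend, quantile normalization, a shift of each array to a common median, the replicate number as a block, the median over a gene's probe sets and leaving out each array, and, added after the data were seen, leaving out 2 rats together and adding probe sets with several symbols. These kept the probe sets of the filter, except where it was dropped.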

Additional observations from a re-analysis of the deposited data

Results flagged for a closer look

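Of 64 groups of 5 rats checked for a single rat far from the others (the named genes and the members' means), 3 were picked out, and chance picks about 1 in 20. Rpl27a in control rat 3 had an intensity of 16204, where the other control rats lay between 13327 and 14038. Polr1b in mulberry rat 5 had 491, where the other mulberry rats lay between 389 and 400.3. Eif4g2 in mulberry rat 1 had 15184, where the other mulberry rats lay between 13610 and 13752.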

How the results depend on the processing

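Under the 20 alternatives, 0 members and, in each one where all probe sets were counted, 0 probe sets passed at 0.05 after adjustment. The lowest adjusted p of any named member was 0.999654. The members' median stayed within the spread between rats, from -0.020 to 0.096 with 1 rat left out, and was -0.0027 with a median shift and 0.053 without control rat 3 and mulberry rat 1 together. The number of members with a higher mean was 20 with a median shift, 17 to 41 with 1 rat left out, and 54 of 80 with the several-symbol probe sets added, which enlarges the list. With the median shift the sign turned for Rpl11 (-0.0058), Rpl22 (-0.0047), Rpl41 (-0.017), Rplp0 (-6.4e-05) and Rpsa (-0.0026). It turned for Rpsa with the median over its probe sets (-0.0037), and without control rat 3 and mulberry rat 1 for Rpl13a (0.020) and Rps15 (0.036). With 1 rat left out the sign turned at least once for Rpl11 (-0.026 to 0.11), Rpl13a (-0.075 to 0.017), Rpl22 (-0.020 to 0.068), Rpl27a (-0.082 to 0.0012), Rpl41 (-0.054 to 0.081), Rplp0 (-0.028 to 0.10), Rps15 (-0.11 to 0.046), Rps27l (-0.096 to 0.19) and Rpsa (-0.020 to 0.11). The other 10 named members kept their sign, between -0.50 and -0.38 for Rpl26l1, -0.36 and -0.026 for Rps13, -0.094 and -0.017 for Rpl21, 0.17 and 0.56 for Rpl39, 0.0090 and 0.19 for Rps3, 0.039 and 0.18 for Rps6, 0.042 and 0.14 for Rpl37a, 0.041 and 0.12 for Rps3a, 0.052 and 0.13 for Rpl5, and 0.072 and 0.17 for Rpl3. The cause was not tested. With the replicate number as a block, 0 members passed and the median was 0.025; deviations of rats with the same number correlated between -0.30 and 0.14, above 0.1 in 1 of 5 pairs, so the numbers were not read as pairs.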
